A study of Homo sapiens with 6 samples.

Results

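The genes described here form the integrated stress response that runs through ATF4 and CHOP, together with the serine, one-carbon and amino acid enzymes that ATF4 switches on. They were chosen by name as a list of 34 genes. All 34 were found among the 62703 genes of the deposited table, and 33 passed the filter on low counts, out of 15693 genes tested in all. The libraries are RNA-seq of HGC-27, an established line from an undifferentiated human gastric cancer, grown with 10% fetal bovine serum. Of the 6 libraries, 3 came from cells stably carrying an shRNA against GXYLT2 (shGXYLT2, labelled as a knockdown) and 3 from cells carrying a control shRNA (shControl, labelled as wild type). The shRNA sequence, the number of shRNAs and clones, and whether replicates came from separate cultures are not given, so p-values measure the spread between these libraries, which may be technical.

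Cells that lack amino acids or heme, fold proteins poorly or sense double-stranded RNA phosphorylate the translation factor eIF2. General protein synthesis then slows, while the mRNA of the transcription factor ATF4 is translated more, so the ATF4 mRNA level alone does not give its activity. ATF4 pairs with C/EBP proteins on composite C/EBP-ATF elements and raises genes for amino acid synthesis, uptake and tRNA charging; under lasting stress it raises DDIT3, which encodes CHOP, a factor linked to cell death. In proliferating tumour cells ATF4 also keeps up serine synthesis and the mitochondrial folate enzymes that turn serine into one-carbon units for nucleotides.

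GXYLT2, the targeted gene, had 5.27, 6.27 and 5.34 CPM (counts scaled to library size with TMM factors) in the shGXYLT2 libraries, against 20.7, 22.8 and 20.2 CPM in the shControl libraries. It was 73.5% lower (log2 fold change -1.91, SE 0.11; adjusted p = 6.3e-10 by the quasi-likelihood test of edgeR). An exact two-sided permutation test gave p = 0.1, the lowest value possible for 3 against 3 libraries. Totals were 22188073 to 24898425 estimated counts in shGXYLT2 and 17291138 to 22540099 in shControl libraries. Mitochondrially encoded genes took 5.85% to 6.45% of counts in shGXYLT2 and 5.79% to 5.81% in shControl, and the nuclear RNA MALAT1 had 391.8 to 424 CPM in shGXYLT2 and 448 to 661 CPM in shControl libraries. The labelled gastric cancer cells had little of the epithelial markers fixed for this check: EPCAM, KRT18 and KRT19 stayed below 1 CPM in every library, KRT8 and CDH1 averaged 1.67 and 2.62 CPM, and the mesenchymal filament VIM averaged 2597 CPM. Leukocyte and endothelial markers summed to at most 2.23 CPM in any library, with CD3E, PECAM1, CDH5 and KDR at 0. The 5 fibroblast markers summed to 503 to 543 CPM in shGXYLT2 and 396 to 409 CPM in shControl libraries, carried by DCN and LUM; the part of this shift in the results that follow was not tested. In bulk RNA, fewer cells expressing a gene and less RNA per cell cannot be told apart.

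Among the stress response genes, 6 fell and 0 rose after GXYLT2 knockdown. DDIT3 was 1.97-fold lower, while ATF4 itself, ASNS and the 3 enzymes of serine synthesis did not pass the test. The other falls were small: the transcription factors CEBPG and ATF5, the glutathione-degrading enzyme CHAC1, and SHMT2 and MTHFD2 of mitochondrial one-carbon metabolism. A call here is a Benjamini-Hochberg adjusted p below 0.05 over all tested genes in edgeR. In simulated data, 48 of 100 genes planted with a log2 change of 0.3 were called. Besides these, only 100 genes planted with a change of 1 differed there, among 15480 tested. In the real data 12.2% of all tested genes were called. With fewer changed genes the adjusted p is harder to pass, so the simulated share need not hold for the members. A member that did not pass is still not shown to be unchanged. The 6 falls are 18.2% of the 33 tested members, where 6.84% of all tested genes fell, and the 0 rises compare with 5.31% of all tested genes; since the members were chosen with earlier results known, this share is a description. The median log2 fold change was -0.04 over the members and -0.01 over all tested genes, with 20 members below 0 and 13 above. At an unadjusted p below 0.05 there were 10 lower and 7 higher members, and DESeq2 and limma-voom each called 1 rise, that of TRIB1.

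**Figure D1:**
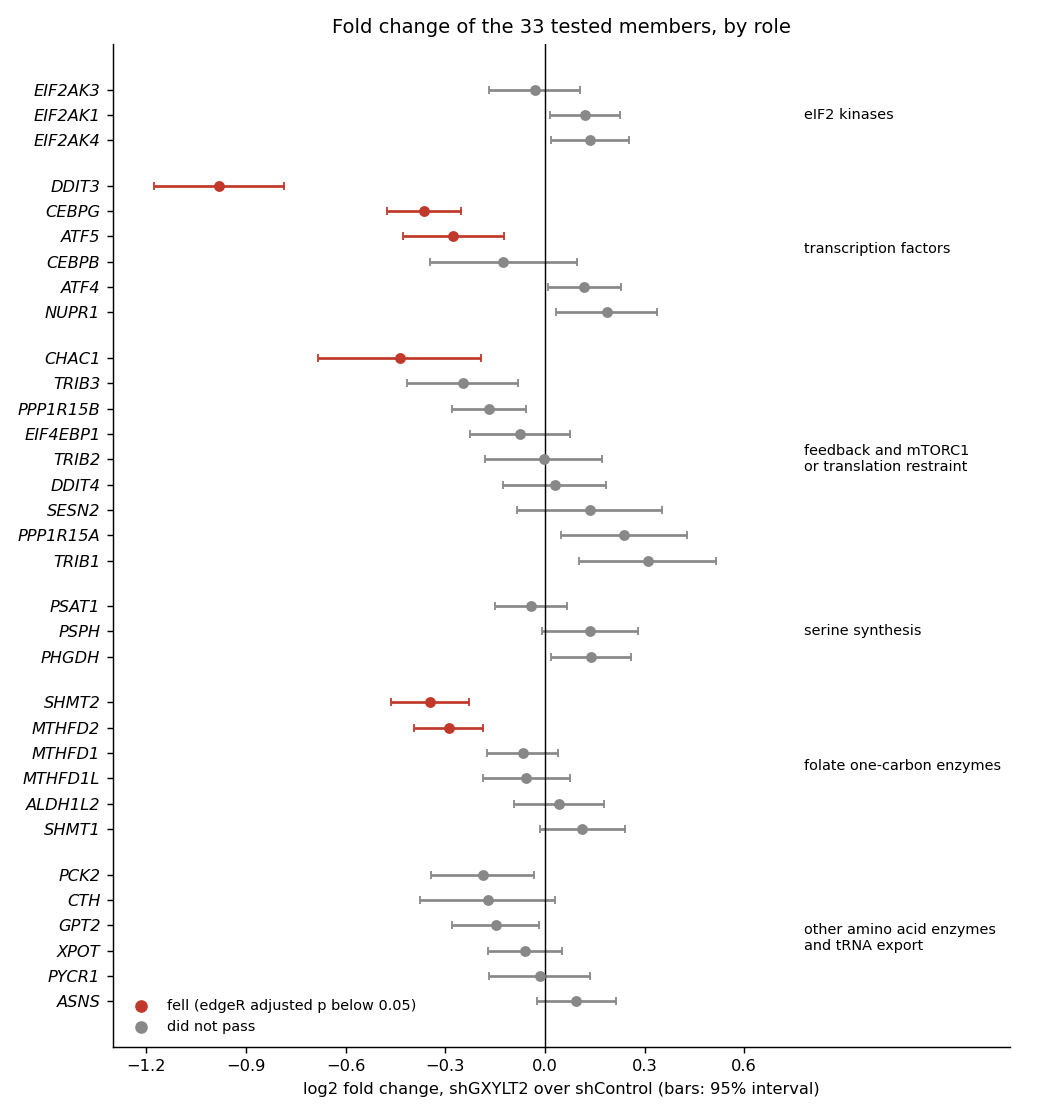
Log2 fold change of shGXYLT2 over shControl (x axis) for the 33 tested members, grouped by role (y axis), with bars for 95% intervals. The 6 members in red passed the test and all lie left of 0, with DDIT3 far from the others at -0.98; the 27 members in grey did not pass.

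The 3 eIF2 kinases among the members did not pass, nor did the fourth kinase, EIF2AK2 (PKR, the sensor of double-stranded RNA), at 182 ± 18.8 CPM in shGXYLT2 and 189 ± 4.08 CPM in shControl libraries (SD, n = 3 each; edgeR adjusted p = 0.70). EIF2AK3 (PERK, the sensor of unfolded protein in the endoplasmic reticulum) had 52.0, 49.9 and 45.8 CPM in shGXYLT2 libraries, against 49.2, 52.4 and 49.4 CPM in shControl libraries, and the groups overlapped (edgeR adjusted p = 0.83). EIF2AK4 (GCN2, which senses uncharged tRNA) had 105, 101 and 101 CPM in shGXYLT2, against 91.6, 92.7 and 95.3 CPM in shControl libraries. EIF2AK1 (HRI, the heme-regulated kinase that also relays mitochondrial stress) had 265, 273 and 272 CPM in shGXYLT2, against 249.0, 248.6 and 247 CPM in shControl libraries. Both had every shGXYLT2 library above every shControl library, by a log2 fold change of 0.14 (edgeR adjusted p = 0.15) for EIF2AK4 and 0.12 (adjusted p = 0.16) for EIF2AK1. On a per-length scale, TPM from the estimated counts and the deposited gene length, EIF2AK1 was the most abundant of the 3 kinases among the members (123 ± 1.199 and 116 ± 1.59 TPM in shGXYLT2 and shControl, SD, n = 3 each), followed by EIF2AK4 (37.1 ± 1.71 and 34.6 ± 1.23 TPM) and EIF2AK3 (21.8 ± 1.85 and 22.8 ± 0.58 TPM).

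ATF4 was the most abundant member per length in both groups, at 620 ± 34.9 TPM in shGXYLT2 and 584 ± 15.2 TPM in shControl libraries (SD, n = 3 each). Its 415.9, 383.7 and 410.6 CPM in shGXYLT2 libraries overlapped the 362.6, 387.0 and 365.2 CPM of shControl libraries. The log2 fold change of 0.12 (SE 0.06, edgeR adjusted p = 0.19) had a 95% interval from 0.01 to 0.23, from its SE and not adjusted for multiple tests. The estimate for ATF4 had the opposite sign to that for DDIT3, but no change of ATF4 was called, here or under any of the 14 alternatives.

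DDIT3 (chromosome 12, bases 57516588 to 57521737, minus strand, GRCh38) had 10.3, 11.4 and 13.1 CPM in the shGXYLT2 libraries, against 23.6, 21.9 and 23.0 CPM in the shControl libraries. The highest shGXYLT2 library lay far below the lowest shControl library. These levels rested on 257, 280 and 292 estimated counts in shGXYLT2 and 411, 374 and 522 in shControl libraries. The fall of 0.98 on the log2 scale (SE 0.10, 1.97-fold lower, edgeR adjusted p = 1.6e-06) was the largest among the members, and 102 of the 1074 fallen genes had a log2 fold change at or below it. Of the annotated exon bases of DDIT3, 27.2% lie opposite exons of MARS1, the methionyl-tRNA synthetase, which averaged 154 CPM in shGXYLT2 and 164 CPM in shControl libraries (edgeR adjusted p = 0.38). The sources used here do not say whether strand was used in counting, so reads of such opposed stretches may not have been told apart.

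CEBPG, a partner of ATF4 on composite elements, had 112, 113 and 109 CPM in shGXYLT2, against 147, 141 and 142 CPM in shControl libraries. The groups lay well apart, and its log2 fold change was -0.36 (SE 0.06, edgeR adjusted p = 2.9e-04). ATF5, a stress factor related to ATF4 that is linked to mitochondrial stress, had 27.7, 25.2 and 27.0 CPM in shGXYLT2, against 32.4, 33.5 and 30.9 CPM in shControl libraries (log2 fold change -0.28, SE 0.08, edgeR adjusted p = 0.025). The groups did not overlap, but the ATF5 call was lost without shGXYLT2 replicate 2 or shControl replicates 1, 2 or 3 (edgeR adjusted p of 0.063, 0.11, 0.12 and 0.058). Of the ATF5 exon bases, 21.2% lie opposite the nucleoporin gene NUP62, which averaged 112 and 116 CPM in shGXYLT2 and shControl libraries (edgeR adjusted p = 0.67). CEBPB, another C/EBP partner, averaged 16.7 ± 2.90 CPM in shGXYLT2 and 18.2 ± 1.22 CPM in shControl libraries (SD, n = 3 each; edgeR adjusted p = 0.54). NUPR1, a small stress-induced chromatin protein, averaged 34.9 ± 0.89 CPM in shGXYLT2 and 30.6 ± 2.15 CPM in shControl libraries, with all shGXYLT2 libraries higher (edgeR adjusted p = 0.13).

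**Figure D2:**
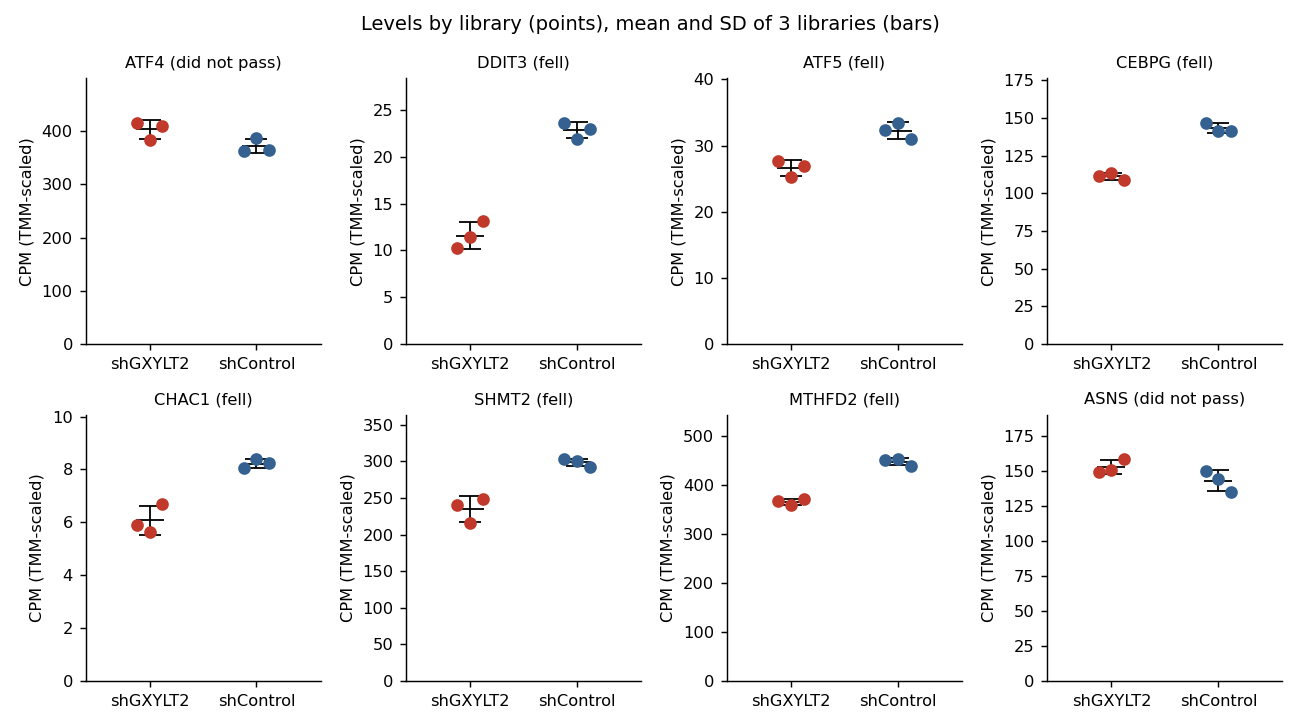
CPM scaled by TMM (y axes, from 0) in each of the 3 shGXYLT2 and 3 shControl libraries (points) for 8 members, with mean and SD as bars. The groups overlap in ATF4 and ASNS and lie apart in DDIT3, ATF5, CEBPG, CHAC1, SHMT2 and MTHFD2, with DDIT3 showing the widest gap.

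Of the 9 genes that feed back on the response or restrain growth, 1 fell, 0 rose and 8 did not pass. Over all tested genes 6.84% fell and 5.31% rose, and 1 call among 9 genes lies near these shares. CHAC1, a target of ATF4 and CHOP that breaks down glutathione, had 5.91, 5.62 and 6.69 CPM in shGXYLT2, against 8.05, 8.38 and 8.23 CPM in shControl libraries. Its groups did not overlap, and its log2 fold change was -0.44 (SE 0.13, edgeR adjusted p = 0.028) on 138 to 149 estimated counts in shGXYLT2 and 140 to 187 in shControl libraries. The CHAC1 call was lost with DESeq2 (adjusted p = 0.061) and without shGXYLT2 replicates 1 or 2 or shControl replicates 1, 2 or 3 (edgeR adjusted p of 0.091, 0.082, 0.083, 0.090 and 0.093). TRIB3, a pseudokinase induced by ATF4 and CHOP that dampens both, had 21.3, 19.4 and 19.9 CPM in shGXYLT2, against 25.2, 22.6 and 24.2 CPM in shControl libraries. The TRIB3 groups did not overlap, yet it did not pass (log2 fold change -0.25, SE 0.08, edgeR adjusted p = 0.063).

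TRIB1, a related pseudokinase, had 96.1, 91.8 and 89.9 CPM in shGXYLT2, against 71.3, 90.5 and 63.1 CPM in shControl libraries. Its shControl replicate 2 reached the shGXYLT2 range, and the log2 fold change of 0.31 (SE 0.11) did not pass (edgeR adjusted p = 0.084). Without that library TRIB1 passed at 0.46 (edgeR adjusted p = 0.0022), the only call in the 6 fits with a library left out. The highest adjusted p of these fits was 0.32, and without shControl replicate 3 the log2 fold change was 0.20 (edgeR adjusted p = 0.25). TRIB2, the third of these pseudokinases, averaged 20.9 ± 1.90 CPM in shGXYLT2 and 20.9 ± 0.87 CPM in shControl libraries (SD, n = 3 each; edgeR adjusted p = 0.99). The regulatory subunits that direct dephosphorylation of eIF2 had opposite signs. The stress-induced PPP1R15A (GADD34) averaged 30.5 ± 1.86 CPM in shGXYLT2 and 26.0 ± 3.83 CPM in shControl libraries (SD, n = 3 each; edgeR adjusted p = 0.12 for a log2 fold change of 0.24). The constitutive PPP1R15B (CReP) averaged 156 ± 3.28 CPM in shGXYLT2 and 175 ± 5.49 CPM in shControl libraries (log2 fold change -0.17, edgeR adjusted p = 0.060). DESeq2 on all 6 libraries called PPP1R15B as lower (adjusted p = 0.041). Of the 6 fits with a library left out, only that without shGXYLT2 replicate 3 called PPP1R15B (edgeR adjusted p = 0.038). The highest adjusted p of these fits was 0.24. The groups of PPP1R15A and of PPP1R15B did not overlap. Those of PPP1R15A were barely apart, at 28.61 CPM in the lowest shGXYLT2 and 28.59 CPM in the highest shControl library.

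The inhibitors of mTORC1 signalling and of cap-dependent translation did not pass. DDIT4 (REDD1) averaged 63.6 ± 7.13 CPM in shGXYLT2 and 62.3 ± 3.37 CPM in shControl libraries (SD, n = 3 each; edgeR adjusted p = 0.86). SESN2, a leucine sensor, averaged 14.4 ± 2.07 and 13.05 ± 0.58 CPM (adjusted p = 0.49). EIF4EBP1, which blocks the cap-binding factor, averaged 45.5 ± 4.13 and 48.0 ± 2.59 CPM (adjusted p = 0.59). All 3 had overlapping groups.

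Serine synthesis from a glycolytic intermediate runs through PHGDH, PSAT1 and PSPH, and none of the 3 tested genes passed. PHGDH, which takes the first step, had 207, 191 and 214 CPM in shGXYLT2, against 179, 195 and 182 CPM in shControl libraries, with overlap (log2 fold change 0.14, SE 0.06, edgeR adjusted p = 0.16). PSAT1, the transaminase, had 597, 578 and 621 CPM in shGXYLT2, against 619, 638 and 590 CPM in shControl libraries, and the ranges were interleaved (log2 fold change -0.04, 95% interval -0.15 to 0.07). Per length it was second only to ATF4 among the members, at 544 ± 19.6 and 573 ± 13.2 TPM, and in shControl its level and that of ATF4 lay within their spread. PSPH, the phosphatase of the last step, had 40.7, 40.2 and 43.7 CPM in shGXYLT2, against 37.0, 36.1 and 40.2 CPM in shControl libraries, barely apart (log2 fold change 0.14, edgeR adjusted p = 0.26).

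The next step converts serine to glycine and one-carbon units, and 2 of the 6 folate enzymes fell, where 6.84% of all tested genes fell. SHMT2, the mitochondrial hydroxymethyltransferase (chromosome 12, plus strand, bases 57229327 to 57234935), had 240, 216 and 249 CPM in shGXYLT2, against 303, 300.5 and 293 CPM in shControl libraries. The groups lay apart, with a log2 fold change of -0.35 (SE 0.06, edgeR adjusted p = 7.5e-04). Its cytosolic counterpart SHMT1 had 61.8, 59.2 and 64.3 CPM in shGXYLT2, against 57.7, 55.4 and 58.2 CPM in shControl libraries, slightly higher in each (log2 fold change 0.11, edgeR adjusted p = 0.30). MTHFD2, the mitochondrial dehydrogenase and cyclohydrolase (chromosome 2, plus strand, bases 74198562 to 74217565), had 368, 359 and 371 CPM in shGXYLT2, against 451, 452 and 439 CPM in shControl libraries. The MTHFD2 groups were tight and apart (log2 fold change -0.29, SE 0.05, edgeR adjusted p = 0.0011). Of its exon bases 27.2% lie opposite SLC4A5, which averaged 1.04 CPM in shGXYLT2 and 0.685 CPM in shControl libraries.

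The remaining folate enzymes did not pass. MTHFD1, the trifunctional cytosolic enzyme, averaged 455 ± 18.8 CPM in shGXYLT2 and 476 ± 6.26 CPM in shControl libraries (SD, n = 3 each; edgeR adjusted p = 0.49). MTHFD1L, which releases formate from mitochondria, averaged 61.4 ± 3.43 and 63.9 ± 1.93 CPM (adjusted p = 0.66). ALDH1L2, which oxidises formyl-folate in mitochondria, averaged 78.7 ± 3.85 and 76.3 ± 5.54 CPM (adjusted p = 0.76). A difference between the mitochondrial and the cytosolic enzymes was not tested.

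Ratios of 2 members within a library do not depend on how libraries are scaled; 8 were computed, chosen after the values were seen, and are given as a description with no test. The count ratio of DDIT3 to ATF4 was 0.0247, 0.0297 and 0.0319 in shGXYLT2, against 0.0652, 0.0566 and 0.0629 in shControl libraries. The ratio of SHMT2 to SHMT1 was 3.89, 3.65 and 3.88 in shGXYLT2, against 5.25, 5.43 and 5.03 in shControl libraries. This ratio was lower in every shGXYLT2 library than in any shControl library. For MTHFD2 over MTHFD1 the ratio was 0.828, 0.810 and 0.778 in shGXYLT2, against 0.942, 0.940 and 0.935 in shControl libraries. SHMT2 over PHGDH averaged 1.153 ± 0.018 in shGXYLT2 and 1.62 ± 0.08 in shControl libraries (SD, n = 3 each). MTHFD2 over MTHFD1L, ATF5 over ATF4 and CHAC1 over ASNS also lay apart, while CEBPG over CEBPB overlapped, at 6.81 ± 1.39 and 7.90 ± 0.69 in shGXYLT2 and shControl libraries.

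**Figure D3:**
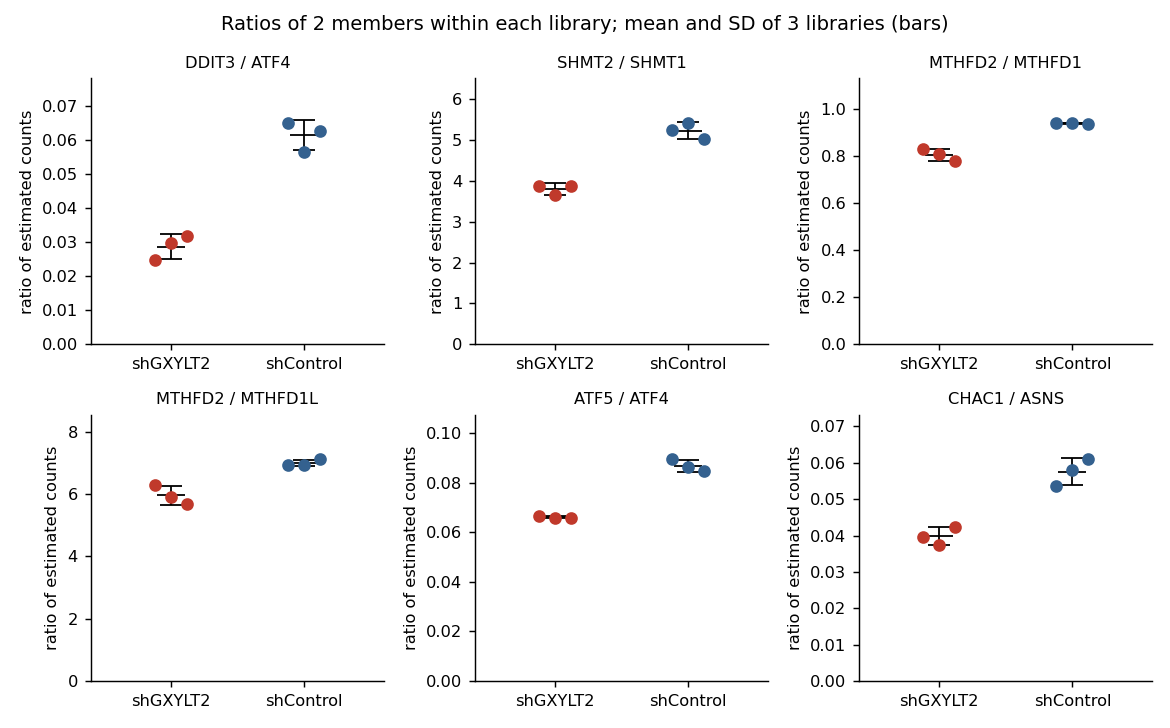
Ratio of the estimated counts of 2 members within each library (y axes, from 0) for 6 pairs, with the 3 shGXYLT2 libraries left and the 3 shControl libraries right, and bars for mean and SD. All 6 ratios are lower in each shGXYLT2 library than in any shControl library, with the widest gap in DDIT3 over ATF4 (means 0.0288 and 0.0616). Of the 8 ratios computed, SHMT2 over PHGDH and CEBPG over CEBPB are not drawn, and the groups overlapped in CEBPG over CEBPB. Each numerator drawn is a member already called as fallen.

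None of the other tested amino acid enzymes passed, nor did the tRNA exporter. ASNS, asparagine synthetase and a classic ATF4 target, had 149, 151 and 158 CPM in shGXYLT2, against 150.0, 144 and 135 CPM in shControl libraries. Its groups overlapped, and its log2 fold change of 0.09 (SE 0.06, edgeR adjusted p = 0.35) had a 95% interval of -0.02 to 0.21. Of its exon bases 44.6% are shared on the same strand with the transcript gene ENSG00000284707, which averaged 6.82 and 7.09 CPM in shGXYLT2 and shControl libraries. PCK2, the mitochondrial carboxykinase, averaged 32.1 ± 2.11 CPM in shGXYLT2 and 36.6 ± 2.35 CPM in shControl libraries (SD, n = 3 each; edgeR adjusted p = 0.14). GPT2, the mitochondrial alanine transaminase, averaged 49.9 ± 2.34 and 55.3 ± 1.00 CPM (adjusted p = 0.17). PCK2 and GPT2 were lower in every shGXYLT2 library without passing.

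PYCR1, which completes proline synthesis, averaged 66.5 ± 7.36 CPM in shGXYLT2 and 67.3 ± 3.26 CPM in shControl libraries (SD, n = 3 each; edgeR adjusted p = 0.93). CTH, which makes cysteine from cystathionine, averaged 12.04 ± 0.75 and 13.6 ± 1.14 CPM (adjusted p = 0.32), and XPOT, the nuclear exporter of tRNA, averaged 329 ± 17.9 and 343 ± 5.50 CPM (adjusted p = 0.56). These 3 had overlapping groups. CBS, the enzyme before CTH, had 0, 0 and 3 estimated counts in shGXYLT2 and 1, 0 and 1 in shControl libraries and was not tested. A near-identical copy (ENSG00000274276) is listed at 0 in all libraries, so reads shared by the copies may have been lost in counting, and the CBS level is uncertain.

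Counting directions without a threshold on p, 10 of the 33 tested members had every shGXYLT2 library below every shControl library, and 6 had every one above. Over all tested genes these shares were 15.8% and 14.6%, or 30.4% in either direction, against 48.5% of the tested members. The 10 lower members were the 6 that fell with TRIB3, PPP1R15B, PCK2 and GPT2, and the 6 higher ones were EIF2AK1, EIF2AK4, NUPR1, PPP1R15A, PSPH and SHMT1.

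**Figure D4:**
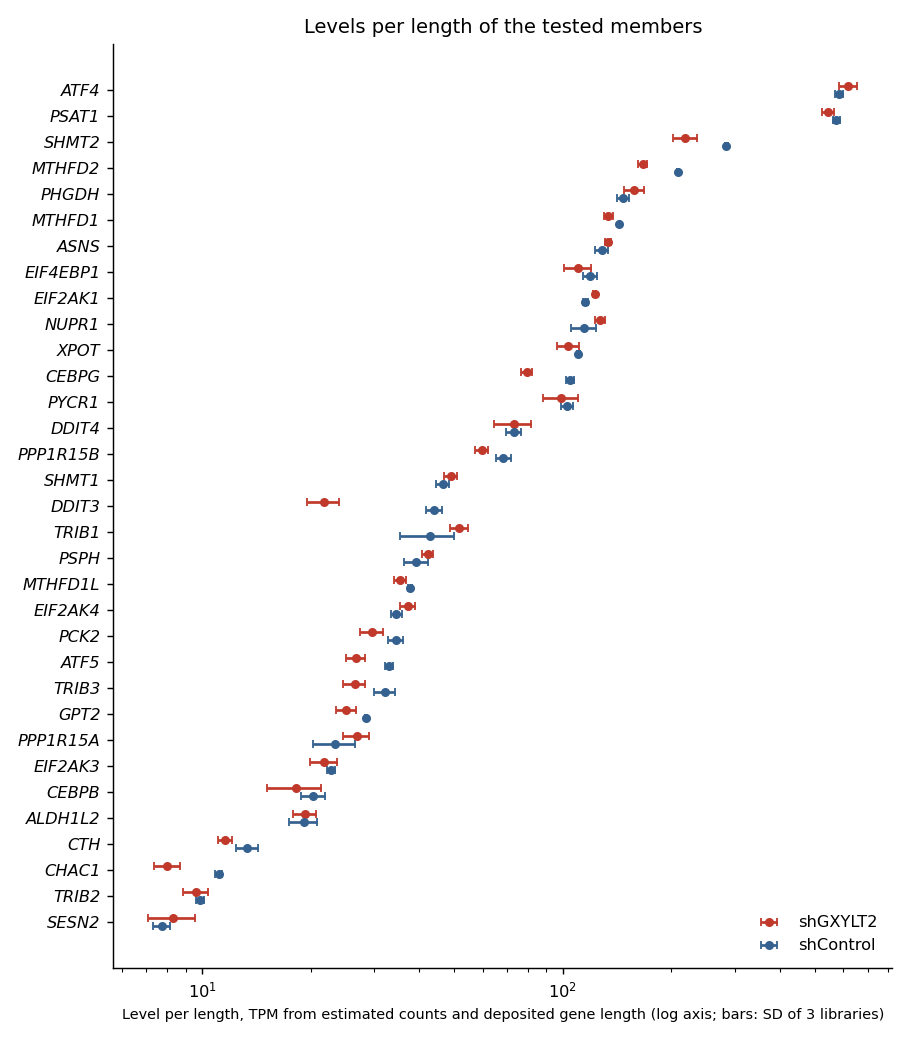
Level per length in TPM (x axis, log scale) of the 33 tested members, ordered by the shControl mean, as mean and SD of 3 shGXYLT2 and 3 shControl libraries. ATF4 and PSAT1 are the most abundant in both groups, and DDIT3 stands out of the order, at 21.7 TPM in shGXYLT2 and 44.0 TPM in shControl libraries.

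Levels per length put the members in nearly the same order in both groups. After ATF4 and PSAT1 came SHMT2, at 219 ± 16.7 TPM in shGXYLT2 and 284 ± 2.95 TPM in shControl libraries (SD, n = 3 each), and MTHFD2, at 167 ± 4.88 and 208 ± 1.05 TPM. PHGDH followed at 158 ± 9.82 and 147 ± 5.46 TPM, within its spread of MTHFD2 in shGXYLT2 but not in shControl libraries. DDIT3 was 27th of the 34 members in shGXYLT2 and 17th in shControl libraries, the largest shift of rank. At the low end of the tested members, SESN2, TRIB2 and CHAC1 had 8.32 ± 1.22, 9.62 ± 0.77 and 8.01 ± 0.65 TPM in shGXYLT2 and 7.74 ± 0.42, 9.87 ± 0.25 and 11.1 ± 0.24 TPM in shControl libraries. The sources used here do not define the deposited length, so differences between genes hold for that length alone.

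Promoter sequences are shown for the members that hold the composite C/EBP-ATF element, the site where ATF4 is known to act, because some of them fell and some did not. RefSeq promoters (GRCh38.p14, 250 bases before to 50 after each start) matched 25 of the 34 members by symbol. The element was searched as TGATGNAA on both strands, and 5 of those 25 members held it, against 4.46% of the 27305 genes in the table. The stretches are 30 bases on either side of the match where the window allows, 5′ to 3′ on the gene's strand, with the match in capitals. They lie at chr15:40953232-40953299 (plus strand, CHAC1), chr19:33374041-33374108 (plus strand, CEBPG), chr7:97872439-97872506 (minus strand, ASNS), chr6:150866327-150866394 (plus strand, MTHFD1L) and chr1:204412007-204412067 (minus strand, PPP1R15B).
CHAC1: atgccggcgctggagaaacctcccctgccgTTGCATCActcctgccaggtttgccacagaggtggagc
CEBPG: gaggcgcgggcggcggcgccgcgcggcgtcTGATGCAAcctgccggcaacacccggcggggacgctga
ASNS: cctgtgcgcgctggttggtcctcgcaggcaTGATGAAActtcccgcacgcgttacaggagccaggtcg
MTHFD1L: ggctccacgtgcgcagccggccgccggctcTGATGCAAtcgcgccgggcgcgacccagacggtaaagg
PPP1R15B: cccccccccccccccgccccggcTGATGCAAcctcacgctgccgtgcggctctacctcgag

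The CHAC1 match is on the strand opposite to the gene, so it reads as TTGCATCA here, and the other matches are on the gene's strand. The first base of the match lay 209, 42, 68, 129 and 227 bases before the start in CHAC1, CEBPG, ASNS, MTHFD1L and PPP1R15B. Of these 5 genes CHAC1 and CEBPG fell, while ASNS, MTHFD1L and PPP1R15B had log2 fold changes of 0.09, -0.06 and -0.17 and did not pass. DDIT3, ATF5 and MTHFD2 fell without the element in the searched window, and SHMT2 had no promoter in the table. The window ends 250 bases before the start, so an element further out in these genes would have been missed. The element was therefore present both in members that fell and in members that did not pass.

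An earlier look at these libraries had related falls to the 7-base word GACTCAT in 3′ UTRs, so the members were searched for it in their longest annotated 3′ UTR of at least 100 bases (GENCODE release 29). The word was held by 8.35% of 12373 tested genes with such a UTR and by 25.4% of the 970 of them that fell; it was chosen on these fold changes, so the shares are a description. ATF4 was not among the members searched. The UTR searched for NUPR1 had 4975 bases, against a deposited gene length of 550, so the longest UTR may not be the one expressed here. None of the 6 fallen members held the word, DDIT3 included, and of the 32 members searched only EIF2AK4 did. That copy starts at base 29 of a 3′ UTR of 1647 bases, which belongs to a shorter transcript that ends well before the last base of the gene (40035591). The stretch around it, chr15:39973800-39973828 (plus strand), is shown with the word in capitals, as the single copy among the members.
EIF2AK4: atttccacaaaGACTCATggactttactt

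Around the members, 113 further genes of the pathway were read from 6 lists, of which 108 were tested. In all 4 rose and 18 fell, with a median log2 fold change of -0.05, where 5.31% of all tested genes rose and 6.84% fell. The counts of each list that follow are to be read against these shares, and a list with 1 call of 17 or of 20 genes lies near them. The lists differed in which of their genes moved. With shControl replicate 1, 2 or 3 left out, 12, 10 and 12 of these genes fell and 1, 2 and 2 rose. Of the 18 that fell, 6 held the word described above, which none of the fallen members did: EIF2B2, TNFRSF10B, SQSTM1, SLC7A11, SLC38A1 and GLUD1.

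**Figure D5:**
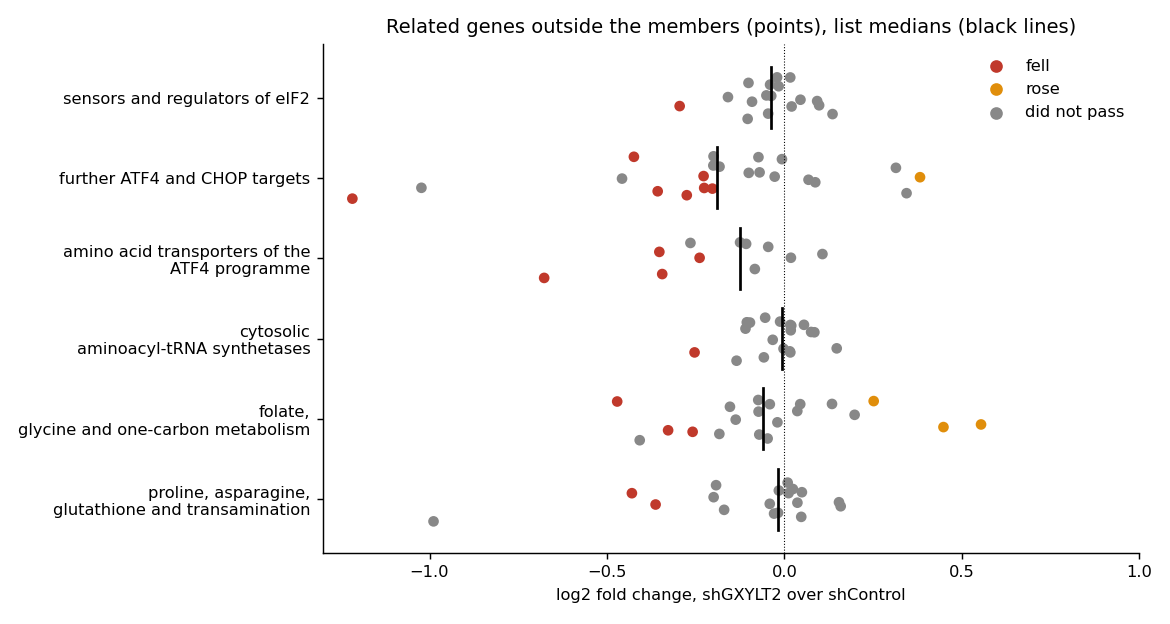
Log2 fold change of shGXYLT2 over shControl (x axis) for the 108 tested related genes in 6 lists (y axis), with list medians as black lines. Most red points (18 genes that fell) lie in the lists of further ATF4 and CHOP targets and of amino acid transporters, and the lowest is SQSTM1 at -1.22.

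Among further ATF4 and CHOP targets 7 of 22 tested genes fell and 1 rose, with a median of -0.19. The autophagy receptor SQSTM1 fell to 54.5 ± 6.20 CPM in shGXYLT2, against 127 ± 3.68 CPM in shControl libraries (SD, n = 3 each; edgeR adjusted p = 1.9e-09). PMAIP1 (NOXA), a BH3-only death protein, fell to 26.0 ± 0.89 CPM in shGXYLT2, against 34.9 ± 1.31 CPM in shControl libraries (edgeR adjusted p = 8.9e-04). JDP2, a bZIP repressor, fell by 0.36 on the log2 scale, a call lost without shControl replicate 2 (adjusted p = 0.058). BCL2L11 (BIM), another BH3-only protein, rose to 20.1 ± 2.07 CPM in shGXYLT2, against 15.4 ± 0.37 CPM in shControl libraries; the call was lost without shGXYLT2 replicate 1 or any 1 shControl library (adjusted p up to 0.088). ATF3, a partner of ATF4 and CHOP, averaged 18.5 ± 0.96 CPM in shGXYLT2 and 17.5 ± 2.42 CPM in shControl libraries (adjusted p = 0.65). The falls in this list numbered 3, 5 and 8 without shGXYLT2 replicates 1, 2 and 3, and 4, 3 and 5 without shControl replicates 1, 2 and 3, and the rise was lost in 4 of these 6 fits.

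Of 11 tested amino acid transporters 4 fell and 0 rose, with a median of -0.13. SLC7A11, which imports cystine for glutathione, fell to 82.7 ± 11.1 CPM in shGXYLT2, against 132 ± 8.75 CPM in shControl libraries (SD, n = 3 each; edgeR adjusted p = 4.6e-05 for a log2 fold change of -0.68). The glutamine transporter SLC38A1 fell to 499 ± 42.0 CPM in shGXYLT2, against 633 ± 24.3 CPM in shControl libraries, and the leucine transporter SLC7A5 fell to 293 ± 33.2 CPM, against 375 ± 16.7 CPM (edgeR adjusted p = 0.0011 and 0.0027). These 3 calls held with each library left out in turn.

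Of 20 tested cytosolic tRNA synthetases, which load amino acids onto tRNA, 1 fell and 0 rose, with a median of -0.01. EPRS1, for glutamate and proline, fell to 368 ± 45.0 CPM in shGXYLT2, against 438 ± 12.4 CPM in shControl libraries (SD, n = 3 each; edgeR adjusted p = 0.028), a call lost without any 1 shControl library (adjusted p up to 0.11). Of 17 tested sensors and regulators of eIF2 1 fell, EIF2B2, a subunit of the exchange factor for eIF2, at 49.6 ± 2.23 CPM in shGXYLT2 and 60.9 ± 0.76 CPM in shControl libraries (edgeR adjusted p = 0.0055). The synthetases showed 3 falls and 1 rise without shGXYLT2 replicate 3, and the regulators of eIF2 showed 2 falls without shGXYLT2 replicate 2.

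In folate, glycine and one-carbon metabolism 3 of 20 tested genes rose and 3 fell, with a median of -0.06. SLC25A32, the carrier that brings folate into mitochondria, fell to 39.0 ± 2.20 CPM in shGXYLT2, against 54.0 ± 1.47 CPM in shControl libraries (SD, n = 3 each; edgeR adjusted p = 1.5e-04 for a log2 fold change of -0.47). SFXN3, a serine carrier of mitochondria, fell by 0.33 on the log2 scale, a call lost without shControl replicate 2 or 3 (adjusted p up to 0.089). MTRR, which reactivates methionine synthase, fell by 0.26, a call lost without any 1 shControl library (adjusted p up to 0.091). SLC46A1, a proton-coupled folate importer, rose to 8.16 ± 0.84 CPM in shGXYLT2, against 5.54 ± 0.31 CPM in shControl libraries (edgeR adjusted p = 0.0086, and 0.051 without shControl replicate 1). SRR, which makes D-serine, rose by a log2 fold change of 0.45 (adjusted p = 0.047), and 1 of the 6 fits with a library left out kept that call (adjusted p of 0.028 to 0.16). Without shControl replicates 1, 2 and 3 this list held 2, 1 and 1 falls and 1, 2 and 2 rises.

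Among genes of proline, asparagine, glutathione and transamination 2 of 18 tested fell and 0 rose, with a median of -0.02. GLUD1, glutamate dehydrogenase, fell to 153 ± 3.28 CPM in shGXYLT2, against 196 ± 11.7 CPM in shControl libraries (SD, n = 3 each; edgeR adjusted p = 4.3e-04). GCLC, the catalytic subunit of the first enzyme of glutathione synthesis, fell to 51.2 ± 4.68 CPM in shGXYLT2, against 69.1 ± 2.37 CPM in shControl libraries (edgeR adjusted p = 5.5e-04). Both calls held with each library left out in turn.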

How the data were processed

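The authors deposited a single table that holds an estimated count for each gene, without normalization, in which 12.3% of values were not whole numbers, and a gene length. The submitters' processing notes name GRCh38.p13 and the tools HISAT2, StringTie and fastp; the sources used here give neither versions and roles nor the counting step, the annotation and what the length covers. Per the labels' protocols, libraries were made with a stranded messenger RNA kit. Groups and replicate numbers came from the sample titles; the numbers in the table's column names differ from them for 3 libraries, so the replicate numbers are names only.

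Estimated counts were rounded and analysed in R 4.3.3 with edgeR 4.0.16: filterByExpr by group, TMM factors, the robust quasi-likelihood test with group as the only term, and Benjamini-Hochberg adjustment over 15693 genes at 0.05. limma 3.58.1 (voom) and DESeq2 1.42.0 were alternatives. TPM was computed from the deposited length. No library pair differed by as little as sampling noise: chi-square per degree of freedom was 5.42 to 9.94 between shGXYLT2 and 1.93 to 3.79 between shControl libraries. Pairs across the groups had 7.96 to 16.96, so some of them differed less than shGXYLT2 replicates 2 and 3 did (9.94). The model was also run on data simulated from the fitted levels and spread. Of 100 genes planted with a log2 change of 0.3, 48 were called, and of 100 planted with a change of 1, 100 were called. The planted genes were the only changed ones among 15480 and were drawn above a set level, unlike the real data. Unchanged genes made up 8.64% of all calls there. Gene positions and 3′ UTRs came from GENCODE release 29 (GRCh38).

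All members are named, with values per library for those past the threshold and for ATF4, DDIT3, ASNS, PHGDH, PSAT1, TRIB3, CHAC1 and the eIF2 kinases; from each related list, up to 3 risen and 3 fallen genes by adjusted p. A gene named by this rule is not reported here. TRIB1, PSPH, SHMT1, ATF3, EIF2AK2, the genes that overlap members and the carriers of the 3′ UTR word are given beyond that rule. The members, lists and tests were chosen with earlier results of these data known. Figures were drawn with Python 3.11.15 and matplotlib 3.10.9.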

Additional observations from a re-analysis of the deposited data

How the results depend on the processing

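Each value was recomputed under 14 alternatives. DDIT3, CEBPG, SHMT2 and MTHFD2 fell under all of them, with log2 fold changes of -1.07 to -0.90, -0.38 to -0.34, -0.39 to -0.29 and -0.30 to -0.27. Of the values of single members, 441 kept their side of the threshold, 12 lost a call (ATF5 and CHAC1) and 9 gained one (TRIB1, PPP1R15A and PPP1R15B); none of the calls changed direction. Risen members numbered 2 with no filter (TRIB1 and PPP1R15A), 1 with DESeq2, 1 with limma-voom, 1 without robust estimation and 1 with the replicate block, and 0 to 1 with 1 library left out; fallen members numbered 4 to 7 with 1 library left out. Over all genes, 397 to 1038 rose and 563 to 1309 fell with 1 library left out, against 833 and 1074, and the lowest counts came without shControl replicate 3. With the replicate number as a block 4 members fell, since ATF5 (adjusted p = 0.054) and CHAC1 (adjusted p = 0.053) were lost, and 606 genes rose and 865 fell; the numbers do not pair the libraries, as deviations of same-numbered libraries correlated at -0.043 to 0.005 and not every library correlated best with its own number. GXYLT2 stayed called under every alternative, with a log2 fold change of -1.92 with the block. The median SE of a member was 0.07 on the log2 scale, and it was 0.06 for PSAT1 and ATF4, the members with the highest TPM; the spread between libraries was above sampling noise.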
